A study of Homo sapiens with 6 samples.

Results

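The 52 genes described here encode the machinery that copies DNA: the proteins that mark and license replication origins, the replicative helicase, the kinase and factors that switch it on, the polymerases, the sliding clamp and its loader, the proteins that guard the fork, and enzymes that supply nucleotides. They were taken by symbol from a table of 58735 genes, and all 52 passed the filter on low counts, among 13503 genes tested. Messenger RNA was measured in RKO cells, an established human colorectal carcinoma line, by RNA sequencing without strand information. The control group was treated with DMSO, the solvent, and the other group with an agent that the labels call EZA. Each group held 3 biological replicates of this 1 cell line. What the letters EZA stand for is not given in the sources used here, nor are dose and duration. This comparison asks how treatment with EZA altered messenger RNA levels relative to DMSO.

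Replication is prepared in G1, when the origin recognition complex, CDC6 and CDT1 load the MCM2-7 ring onto DNA. At the start of S phase the kinase CDC7 with its partner DBF4, together with MCM10 and other factors, helps to convert the ring, CDC45 and the GINS complex into an active helicase. DNA polymerases alpha, delta and epsilon then copy both strands, and the clamp PCNA holds polymerase delta to the template. Ribonucleotide reductase and thymidine kinase supply building blocks. In proliferating cells, carcinoma lines included, many of these genes are transcribed in a wave around the G1/S transition under the E2F family of transcription factors.

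Because many genes of this kind are known E2F targets, the promoters were searched for the letters of the E2F consensus. The RefSeq promoters of build GRCh38.p14, 250 bases before to 50 bases after each gene's start, were matched for 46 of the 52 genes. Any of the words TTTCCCGC, TTTCGCGC, TTTGCCGC or TTTGGCGC, on either strand, lay in 22 of these 46 genes (47.8%, Wilson 95% interval 34.1 to 61.9%). Of the 35116 promoters in the table, 3.31% held such a word, and of the 9932 tested genes that matched, 6.84% did. Among the members lower in EZA by the test described below, 8 of 15 with a promoter held a word (CDC7, CLSPN, GINS1, GINS2, ORC3, PCNA, POLE2 and RFC3), against 14 of 30 whose test did not pass. These shares are 53.3% and 46.7%, and their difference was not tested. The shorter core TTNNCGC, which is contained in all 4 words, lay in 38 of the 46 genes (82.6%, against 45.1% of tested genes and 25.3% of promoters in the table). CCAAT, the letters bound by the factor NF-Y, lay in 29 of 46 (63.0%, against 43.1% of tested genes and 34.6% of promoters in the table). TTTGAA or TTCGAA, the letters of the cell cycle homology region, lay in 3 of 46 (6.52%, against 15.3% of tested genes and 16.4% of promoters in the table).

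Below are 5 of these promoters, each from 150 bases before to 30 bases after the start, 5′ to 3′ on the gene's strand, with the E2F word in capitals. They were chosen to set members that fell, with and without a word, beside a member that did not. GINS1 (chr20:25407523-25407702, plus strand) and POLE2 (chr14:49688185-49688364, minus strand) fell and carry the same word. PCNA (chr20:5126593-5126772, minus strand) fell and carries another word, and a second PCNA start in the table has none. CDT1 (chr16:88803639-88803818, plus strand) carries the PCNA word and did not fall. ORC1 (chr1:52404394-52404573, minus strand) fell and holds no full word, but it holds the core.
GINS1: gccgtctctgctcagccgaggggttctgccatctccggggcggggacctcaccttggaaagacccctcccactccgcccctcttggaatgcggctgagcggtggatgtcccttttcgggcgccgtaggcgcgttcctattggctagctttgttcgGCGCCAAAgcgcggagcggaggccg
POLE2: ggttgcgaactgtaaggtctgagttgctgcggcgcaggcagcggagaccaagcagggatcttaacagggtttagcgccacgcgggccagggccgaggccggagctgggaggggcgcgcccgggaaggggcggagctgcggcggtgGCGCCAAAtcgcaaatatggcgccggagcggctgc
PCNA: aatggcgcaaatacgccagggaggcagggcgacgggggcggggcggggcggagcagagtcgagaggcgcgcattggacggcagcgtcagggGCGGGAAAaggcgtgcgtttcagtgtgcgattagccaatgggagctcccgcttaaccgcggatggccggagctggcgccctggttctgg
CDT1: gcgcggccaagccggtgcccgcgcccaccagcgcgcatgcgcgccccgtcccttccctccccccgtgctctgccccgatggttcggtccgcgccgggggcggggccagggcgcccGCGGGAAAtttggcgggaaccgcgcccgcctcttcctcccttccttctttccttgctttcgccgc
ORC1: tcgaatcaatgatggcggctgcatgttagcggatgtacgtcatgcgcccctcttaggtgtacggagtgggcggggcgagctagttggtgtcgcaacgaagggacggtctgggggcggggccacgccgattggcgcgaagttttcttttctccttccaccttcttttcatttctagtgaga
A match is a description of letters and does not show that a factor bound there.

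The libraries held 14070611 to 18840954 counts, of which 99.8 to 99.9% fell in tested genes. EZA replicate 3 stood apart: 0.203% of its counts came from the mitochondrial chromosome, against 3.68 to 5.02% in the other 5 libraries. Of 10 markers of colon epithelium and carcinoma, EPCAM, KRT8, KRT18 and CDX2 were measured in every library, with 104 counts or more, while KRT19, KRT20, CDH1, VIL1, LGR5 and CEACAM5 had at most 1 count in any library. Of 12 markers of fibroblasts, blood and endothelium, CD68 had 0 to 36 counts and COL1A1 0 to 5 per library, COL3A1 had 1 count in 1 library, and the other 9 were at 0. In the tests below, a gene was called where edgeR's quasi-likelihood test gave a Benjamini-Hochberg adjusted p below 0.05 over all 13503 genes. Levels are given as TMM-normalised counts scaled to library size (CPM), listed by replicate number. Fold changes are log2 of EZA over DMSO with a standard error (SE). The SE is the absolute log2 fold change over the square root of the test's F statistic.

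Most replication genes had lower values in EZA than in DMSO, and members that passed the test came from 7 of the 8 roles, all but the recombination helicase. Of the 52 genes, 16 fell (30.8%) and 1 rose, against 7.82% of all tested genes that were lower and 9.89% that were higher. The genes that fell were ORC1, GINS1, MCM10, CLSPN, RFC3, CDC7, MCM4, PCNA, POLE2, RFC1, DBF4, RRM2, WDHD1, GINS2, PRIM2 and ORC3, and the gene that rose was TK1. All 3 EZA libraries lay below all 3 DMSO libraries in 30 members, against 21.7% of tested genes, and above them in 2 members (TK1 and RPA3), against 21.0%; in the other 20 the groups overlapped. The median log2 fold change of the members was -0.37, with 40 negative and 12 positive values, and that of all tested genes was -0.01. Taken library by library, the members' median difference from the DMSO mean was -0.43, -0.37 and -0.31 in EZA replicates 1, 2 and 3. The study's own threshold asks for a log2 fold change of 1 or more in either direction and an unadjusted p below 0.05. With this threshold applied to edgeR's values, 2 members were lower (ORC1 and POLE2), against 1.96% of tested genes, and 0 were higher, against 3.77%. At an unadjusted p below 0.05 alone, 27 members were lower, against 16.6% of tested genes. In bulk libraries such as these, fewer cells in a given phase of the cell cycle and less RNA per cell cannot be told apart.

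**Figure D1:**
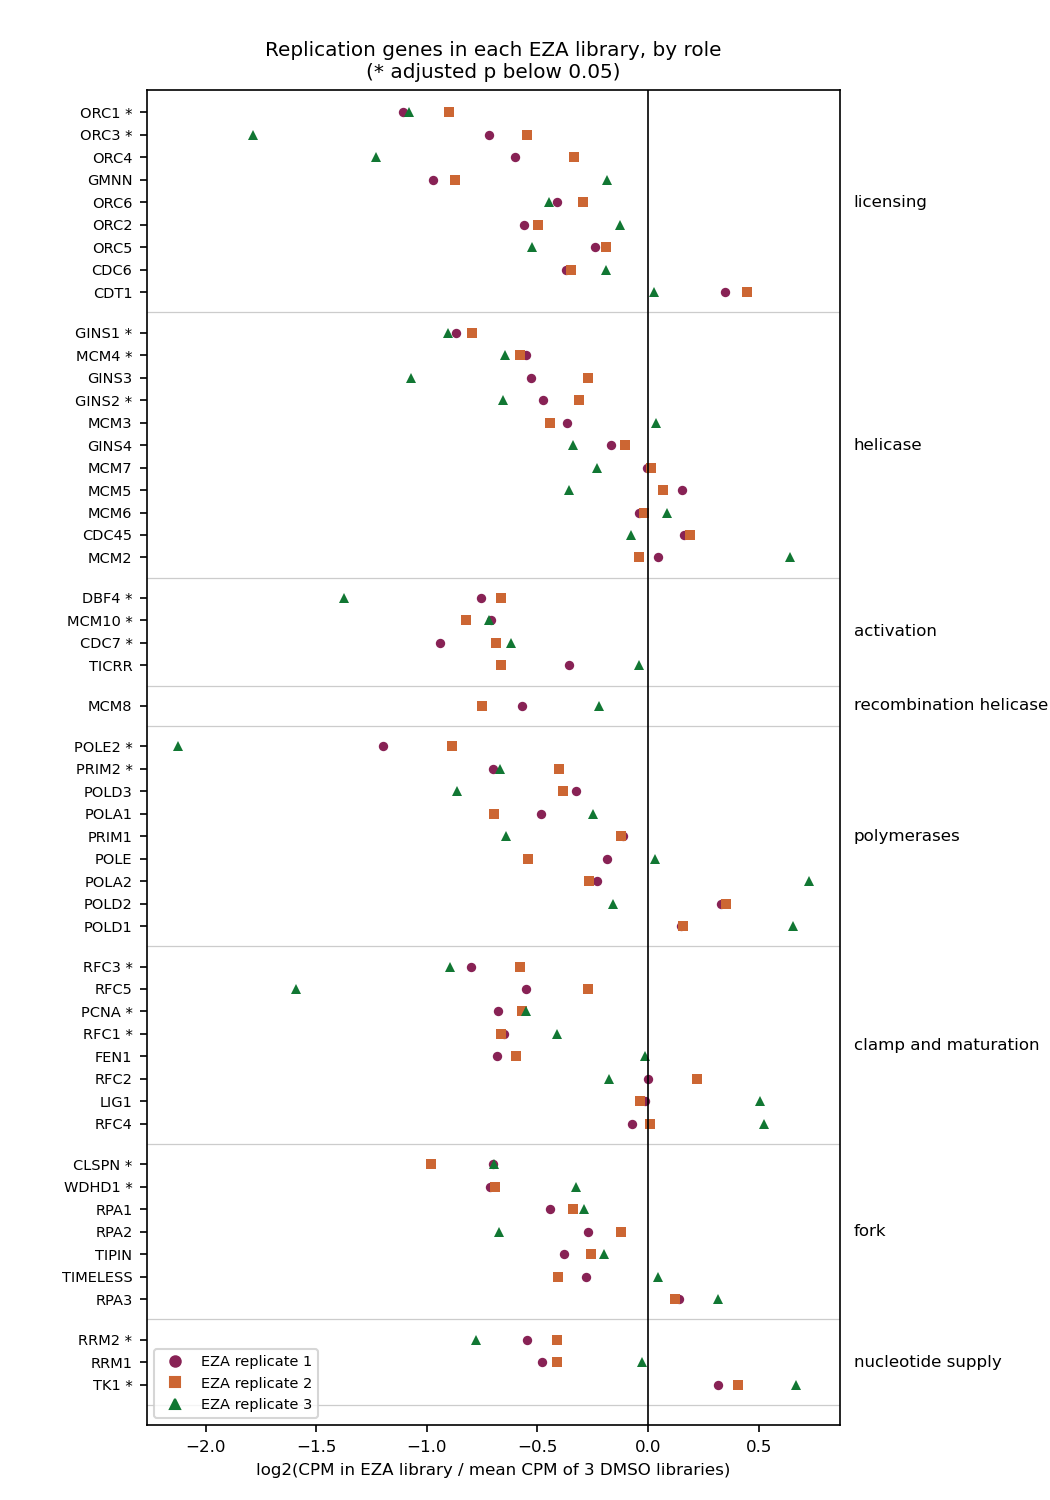
Difference of each EZA library from the mean of the 3 DMSO libraries for the 52 replication genes, on a log2 scale of CPM (x axis), with genes grouped by role (y axis); symbols mark the 3 EZA replicates and asterisks the 17 genes with an adjusted p below 0.05. Points lie left of 0 for most genes, and the 3 replicates lie close together for ORC1, GINS1, MCM10 and PCNA and far apart for POLE2, ORC3, RFC5 and POLA2.

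Leaving out single libraries moved these counts and the share of all genes called, not always to the same degree. Without EZA replicate 3, 33 members were lower, the 16 above among them, against 19.2% of genes, and 3 were higher (TK1, CDT1 and POLD2), against 19.1%. Without DMSO replicate 1 the count fell to 2 (ORC1 and GINS1), against 0.451% of genes, and without DMSO replicate 3 to the same 2, against 0.529%. Leaving out DMSO replicate 2 kept 7 calls (ORC1, GINS1, MCM10, CLSPN, RFC3, CDC7 and PCNA), against 2.17% of genes. Leaving out EZA replicate 1 kept 10, against 4.38%. Without EZA replicate 2 there were 15, 13 of them among the 16, against 3.86%. The count of members that fell thus ranged from 2 to 33 with the library left out, while their median log2 fold change stayed between -0.33 and -0.41. Across 15 alternative analyses, ORC1 and GINS1 were called in all 15, MCM10 in 13, and RFC3, POLE2, CLSPN and PCNA in 12 each.

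**Figure D2:**
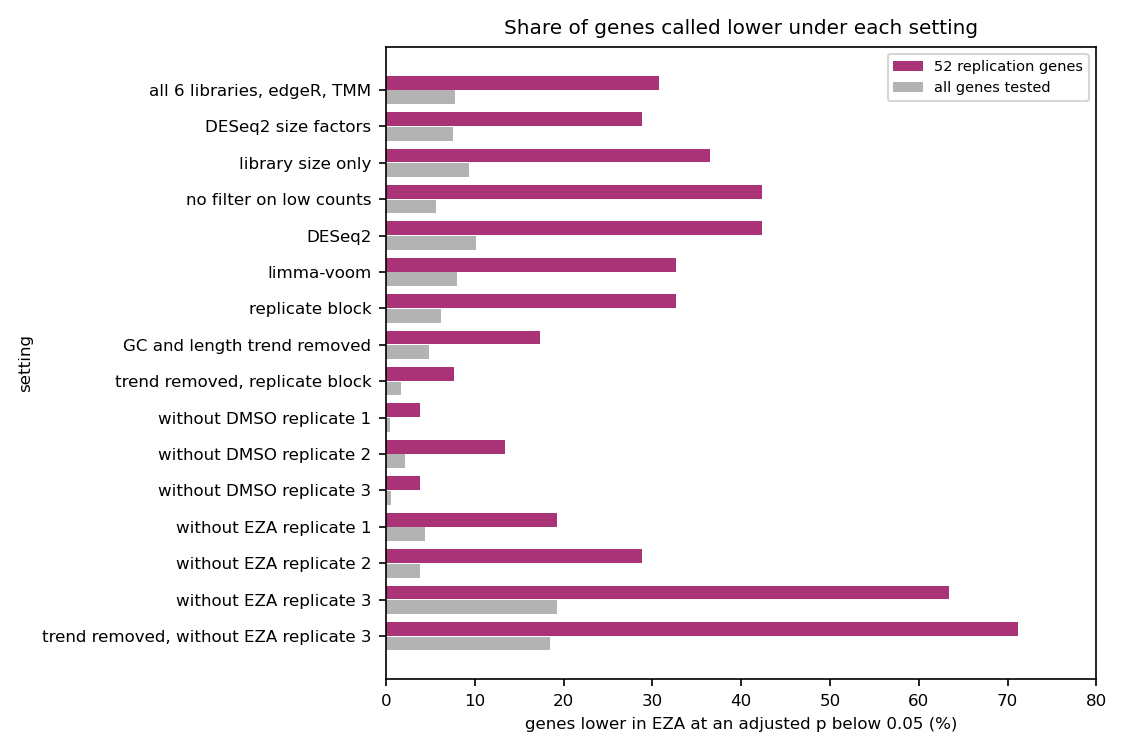
Share of the 52 replication genes (coloured bars) and of all genes tested (grey bars) that were lower in EZA at an adjusted p below 0.05, in percent (x axis), under each analysis (y axis). The replication genes' share is 30.8% and that of all genes 7.82% with all 6 libraries, and the coloured bar is the longer one in every analysis shown.

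Fold changes also ran with the base composition of the transcripts. The 16 members that fell had a median GC content of 41.8% (37.7 to 50.7%), the 35 whose test did not pass 47.1%, and all tested genes 48.5%. Over the 52 members, Spearman's rho between GC content and log2 fold change was 0.68, and over 13445 tested genes it was 0.51; these points share the same 6 libraries. Below 40% GC, 6 of 9 members were lower, against 19.1% of all genes in that range, and from 40 to 45% it was 7 of 18, against 12.2%. Between 45 and 50% GC, 2 of 8 members were lower, and between 50 and 55% it was 1 of 8 (ORC1), against 7.03% and 3.72% of genes. At 55% or more, 0 of 9 members were lower and 1 was higher (TK1), against 1.31% of genes lower and 22.1% higher. When each library's trend on GC content and transcript length was removed, 9 members remained lower, against 4.82% of genes. They were ORC1, GINS1, GINS2, MCM4, MCM10, POLE2, RFC3, PCNA and CLSPN. In that fit 0 members were higher, against 6.57% of genes, and the members' median was -0.26. Without both the trend and EZA replicate 3, 37 members were lower, against 18.4% of genes, and 0 were higher, against 20.2%. What part base composition has in the results was not tested.

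**Figure D3:**
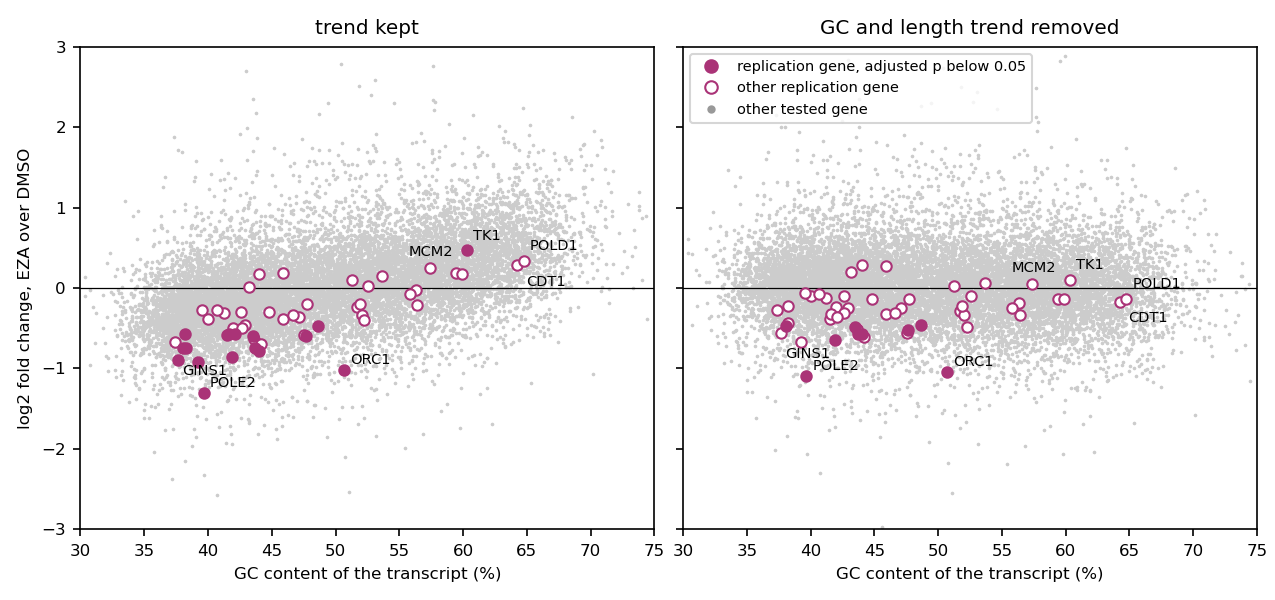
Log2 fold change of EZA over DMSO (y axis, shown from -3 to 3) against the GC content of the transcript in percent (x axis) for the tested genes (grey) and the 52 replication genes (coloured, filled where the adjusted p is below 0.05), before (left) and after (right) the GC and length trend was removed. ORC1 and POLE2 lie low in both panels, and TK1 moves from 0.47 to 0.10.

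Licensing genes fell in 2 of 9 cases (22.2%), ORC1 and ORC3, against 7.82% of all tested genes. The median log2 fold change of the 9 was -0.38. ORC1, the largest subunit of the origin recognition complex and the one whose protein varies through the cell cycle (chr1:52372829-52404423, GRCh38), had 38.5, 41.0 and 38.9 CPM in DMSO and 18.3, 21.1 and 18.7 CPM in EZA. Its groups were far apart and each was tight, with means of 39.5 ± 1.34 and 19.4 ± 1.56 CPM (SD, n = 3 each). The log2 fold change of ORC1 was -1.03 ± 0.13 (SE; adjusted p = 0.00342 by edgeR), which is 0.491 of the DMSO level. ORC3, another subunit of the complex (chr6:87590067-87667453), had 42.8, 36.9 and 39.4 CPM in DMSO and 24.1, 27.2 and 11.5 CPM in EZA. EZA replicate 3 was much the lowest of the 6, though all 3 EZA libraries lay below DMSO. ORC3 changed by -0.92 ± 0.27 (adjusted p = 0.0489), and by -0.63 without EZA replicate 3; once the GC and length trend was removed, the value was -0.67 and did not pass.

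The other 4 ORC subunits had negative fold changes that did not pass the test, with -0.67 for ORC4, -0.38 for ORC6, -0.38 for ORC2 and -0.31 for ORC5. Their libraries did not overlap between groups except for ORC5. CDC6, the loader that joins ORC at the origin, changed by -0.30 (adjusted p = 0.119) with the EZA libraries below DMSO. CDT1, which brings the MCM ring to the origin, had 120.4, 149 and 129.5 CPM in DMSO and 169, 181 and 135 CPM in EZA. Only EZA replicate 3 lay within the DMSO range, and the difference of 0.28 did not pass (adjusted p = 0.209). GMNN, which encodes geminin, the inhibitor of CDT1, had 48.2, 36.7 and 43.1 CPM in DMSO and 21.8, 23.3 and 37.5 CPM in EZA. Again EZA replicate 3 overlapped DMSO, and the change of -0.63 did not pass (adjusted p = 0.0773). Without that library GMNN was called lower at -0.92 and CDT1 higher at 0.40. With the GC and length trend removed from all 6 libraries, CDT1 stood at -0.17 and GMNN at -0.51, and neither passed. With the trend removed and that library out, CDT1 stood at 0.0088 and did not pass, and GMNN was called lower at -0.87.

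Among the 11 helicase genes, the MCM ring and its partners behaved unequally, and the median was -0.20. In all, 3 fell (27.3%, against 7.82% of all tested genes), GINS1, MCM4 and GINS2, and 0 rose, against 9.89%. GINS1, also called PSF1, a subunit of the GINS complex that joins CDC45 and the MCM ring (chr20:25391008-25452700), had 99.8, 88.3 and 95.4 CPM in DMSO. In EZA it had 51.8, 54.4 and 50.5 CPM, a narrow range far below every DMSO library. The fold change was -0.85 ± 0.12 (adjusted p = 0.00456), and its promoter, printed above, holds the word GCGCCAAA beginning 5 bases past the start. GINS1 shares 3.23% of its exon bases with NINL on the opposite strand, which had 1189 counts over the 6 libraries against 6988 for GINS1. GINS2, the second subunit of that complex to fall (chr16:85676198-85690073), had 73.3, 73.0 and 69.0 CPM in DMSO and 51.6, 57.9 and 45.6 CPM in EZA. Its groups did not overlap, and it changed by -0.47 ± 0.13 (adjusted p = 0.0394). GINS3 at -0.58 (adjusted p = 0.0724) and GINS4 at -0.20 (adjusted p = 0.287) did not pass, although their EZA libraries also lay below DMSO.

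MCM4, 1 of the 6 subunits of the ring, had 586, 573 and 581 CPM in DMSO and 396, 388 and 370.5 CPM in EZA. Both groups were tight, at 580.0 ± 6.87 and 385 ± 12.8 CPM (SD, n = 3 each). Its fold change was -0.59 ± 0.12 (adjusted p = 0.0147). The other 5 ring subunits did not pass and their groups overlapped, with -0.24 for MCM3, -0.07 for MCM7, -0.03 for MCM5, 0.01 for MCM6 and 0.25 for MCM2. For MCM2, EZA replicate 3 had 301 CPM, while the other EZA libraries (199 and 188) lay inside the DMSO range of 172 to 213; without replicate 3 the fold change was 0.00. CDC45, the remaining helicase partner, changed by 0.10 (adjusted p = 0.615). MCM8, a relative of the ring subunits that works in recombination, had 78.6, 74.2 and 77.2 CPM in DMSO and 51.7, 45.5 and 65.7 CPM in EZA. The MCM8 groups did not overlap, and its change of -0.50 did not pass (adjusted p = 0.0545). MCM8 shares 33.3% of its exon bases with another gene model on the same strand.

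Origin activation genes fell in 3 of 4 cases, against 7.82% of all tested genes, and the median of the 4 was -0.75. MCM10, which binds the ring as the helicase is switched on (chr10:13161558-13211110), had 100.67, 98.9 and 100.67 CPM in DMSO and 61.2, 56.7 and 60.7 CPM in EZA. Replicates agreed closely in both groups, and the fold change was -0.75 ± 0.11 (adjusted p = 0.00633). CDC7, the kinase that phosphorylates the ring (chr1:91500851-91525764), had 32.7, 27.8 and 28.8 CPM in DMSO and 15.5, 18.4 and 19.4 CPM in EZA. The groups were separate, at -0.74 ± 0.15 (adjusted p = 0.0141). DBF4, the subunit that activates CDC7 (chr7:87876216-87909553), had 39.0, 28.5 and 36.9 CPM in DMSO and 20.6, 22.0 and 13.4 CPM in EZA. It was lowest in EZA replicate 3, and its change was -0.90 ± 0.21 (adjusted p = 0.0247). DBF4 shares 3.16% of its exon bases with SLC25A40 on the opposite strand, which had 1214 counts against 2561 for DBF4. CDC7 and DBF4 did not pass once the GC and length trend was removed (-0.44 and -0.56); their transcripts have 38.3% and 37.7% GC. TICRR, also called treslin, which helps CDC45 onto the ring, changed by -0.33 with overlapping groups (adjusted p = 0.213). It shares 7.0% of its exon bases with KIF7 on the opposite strand, which had 5980 counts against 3343 for TICRR.

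**Figure D4:**
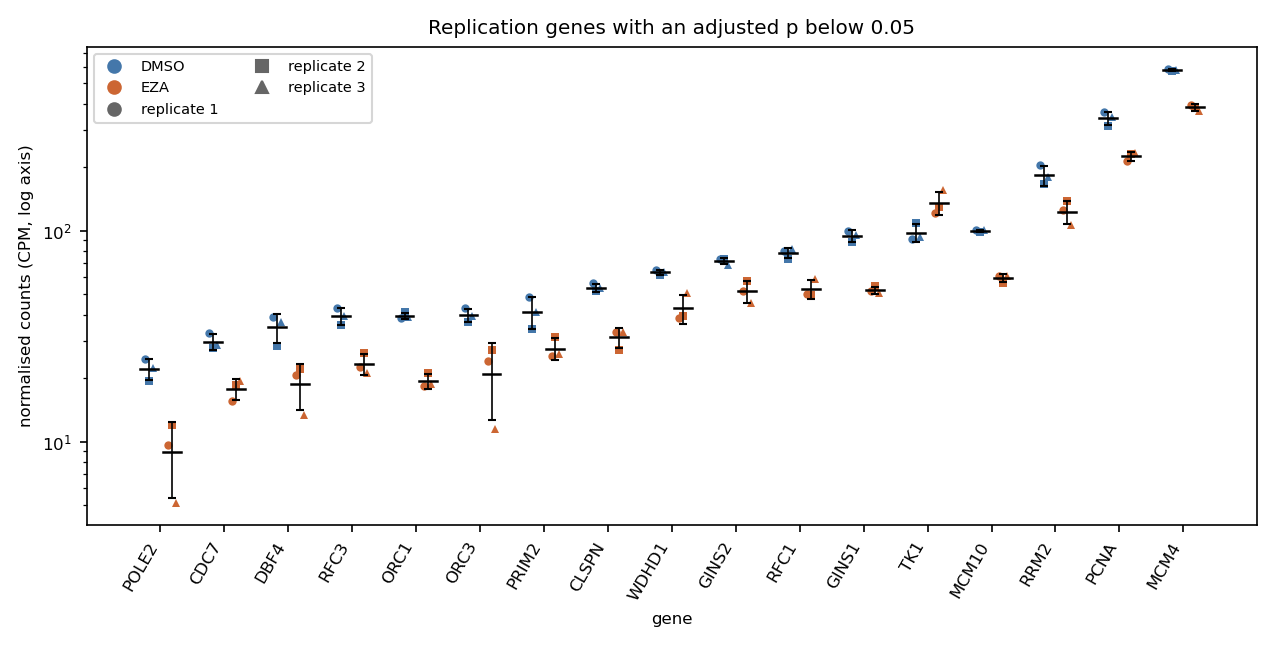
Normalised counts (CPM; y axis, log scale) of the 17 replication genes with an adjusted p below 0.05 (x axis, ordered by DMSO level), with 1 point per library and the mean ± SD of the 3 libraries of each group. DMSO and EZA points do not overlap for any of the 17, and TK1 is the gene with EZA above DMSO.

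Of the 9 polymerase genes, 2 fell (22.2%), POLE2 and PRIM2, against 7.82% of all tested genes. The median was -0.27, and 0 rose, against 9.89%. POLE2, the second subunit of polymerase epsilon (chr14:49643555-49688422), had 24.7, 19.5 and 22.4 CPM in DMSO and 9.65, 12.0 and 5.09 CPM in EZA. By fold this was the largest fall among the 52 genes with all 6 libraries, with means of 22.2 ± 2.60 and 8.91 ± 3.51 CPM (SD, n = 3 each). The fold change was -1.31 ± 0.27 (adjusted p = 0.0171), and -1.03 without EZA replicate 3, the lowest library. With that library out and the trend taken out as well, POLE2 stood at -0.84 and ORC1 at -1.04. POLE, the catalytic subunit of the same polymerase, changed by -0.21 with overlapping groups (adjusted p = 0.394). PRIM2, the large subunit of the primase that starts new strands (chr6:57314805-57646850), had 48.7, 34.0 and 41.3 CPM in DMSO and 25.5, 31.3 and 26.0 CPM in EZA. The gap between DMSO replicate 2 and EZA replicate 2 was small, and the change of -0.58 ± 0.17 (adjusted p = 0.0445) stood at -0.38 and did not pass once the GC and length trend was removed.

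The remaining 6 polymerase genes did not pass. PRIM1, the catalytic primase subunit, changed by -0.27; it shares 4.201% of its exon bases with NACA, which had 28310 counts against 1962. POLA1, the catalytic subunit of polymerase alpha, changed by -0.47 with its EZA libraries below DMSO (adjusted p = 0.0615), and POLA2, its second subunit, by 0.15. EZA replicate 3 set the latter value: POLA2 had 10.9, 10.7 and 21.2 CPM in EZA against 10.8 to 14.1 in DMSO, and stood at -0.25 without that library. In polymerase delta, the accessory subunit POLD3 changed by -0.50 (adjusted p = 0.0819), the catalytic POLD1 by 0.34 (adjusted p = 0.193) and the second subunit POLD2 by 0.19 (adjusted p = 0.431). POLD1 and POLD2 have 64.8% and 59.4% GC, and both were at -0.13 with the trend removed.

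Clamp loading and maturation genes fell in 3 of 8 cases (37.5%), RFC3, PCNA and RFC1, against 7.82% of all tested genes. The median of the 8 was -0.49. RFC3, a small subunit of the loader replication factor C (chr13:33818069-33966558), had 42.9, 35.6 and 39.4 CPM in DMSO and 22.5, 26.3 and 21.1 CPM in EZA. The groups did not overlap, and the change was -0.75 ± 0.14 (adjusted p = 0.0134). RFC1, the large subunit (chr4:39287456-39366375), had 80.3, 73.4 and 81.9 CPM in DMSO and 50.1, 49.5 and 59.0 CPM in EZA. It changed by -0.57 ± 0.13 (adjusted p = 0.0213), and by -0.32, which did not pass, once the GC and length trend was removed. PCNA, the sliding clamp (chr20:5114953-5126626), had the highest deposited length-normalised level (FPKM) of the members. It had 365, 314 and 346 CPM in DMSO and 214, 230.2 and 233 CPM in EZA. Its lowest DMSO library stood well above its highest EZA library, with means of 342 ± 25.6 and 226 ± 10.5 CPM (SD, n = 3 each). The fold change was -0.60 ± 0.12 (adjusted p = 0.0154).

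The other loader subunits did not pass: RFC2 changed by 0.02, RFC4 by 0.18 and RFC5 by -0.70. RFC5 had 48.9, 47.2 and 49.0 CPM in DMSO and 33.0, 40.03 and 16.0 CPM in EZA. All 3 EZA libraries were below DMSO, but their spread was wide (SD 12.3 CPM) and the adjusted p was 0.111. RFC5 shares 5.73% of its exon bases with WSB2 on the opposite strand, which had 13472 counts against 3758 for RFC5. FEN1, the flap endonuclease that trims Okazaki fragments, had 146, 145 and 142 CPM in DMSO and 89.9, 95.3 and 143 CPM in EZA. EZA replicate 3 was level with DMSO while the other EZA libraries were far below, and the change of -0.40 did not pass (adjusted p = 0.151). LIG1, the ligase that seals the fragments, changed by 0.17 (adjusted p = 0.495), and by -0.02 without EZA replicate 3.

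Fork genes fell in 2 of 7 cases (28.6%), CLSPN and WDHD1, against 7.82% of all tested genes. The median of the 7 was -0.34. CLSPN, which encodes claspin, a mediator of the replication checkpoint (chr1:35720218-35769978), had 56.2, 51.6 and 53.4 CPM in DMSO and 33.1, 27.2 and 33.2 CPM in EZA. The replicates were close within each group, and the change was -0.79 ± 0.13 (adjusted p = 0.00902). WDHD1, also called AND-1, which links the helicase to polymerase alpha (chr14:54938949-55027105), had 64.9, 61.8 and 63.7 CPM in DMSO and 38.7, 39.3 and 50.6 CPM in EZA. The fall of -0.57 ± 0.14 (adjusted p = 0.0296) stood at -0.22 once the GC and length trend was removed and did not pass there. Of the single-strand binding protein RPA, RPA1 changed by -0.36 (adjusted p = 0.0671) and RPA2 by -0.34 (adjusted p = 0.162) with EZA below DMSO in both. The smallest subunit, RPA3, lay above DMSO in all 3 EZA libraries but changed by only 0.19 (adjusted p = 0.354). The fork protection partners TIMELESS and TIPIN changed by -0.20 and -0.28 and did not pass.

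Nucleotide supply split: of the 3 members, RRM2 fell and TK1 rose, against 7.82% of all tested genes lower and 9.89% higher. RRM2, the small subunit of ribonucleotide reductase, which makes deoxyribonucleotides (chr2:10120698-10211725), had 204, 166 and 179 CPM in DMSO and 126, 138 and 107 CPM in EZA. Its groups did not overlap, and it changed by -0.57 ± 0.14 (adjusted p = 0.0289); after the trend on GC and length was taken out it was -0.36 and did not pass. RRM1, the large subunit, had 313, 274 and 297 CPM in DMSO and 211, 222 and 289 CPM in EZA. EZA replicate 3 lay inside the DMSO range, and the change of -0.29 did not pass (adjusted p = 0.202). TK1, the cytosolic thymidine kinase of the salvage route (chr17:78174091-78187233), had 91.7, 109 and 93.3 CPM in DMSO and 122, 130.04 and 156 CPM in EZA. All 3 EZA libraries were above DMSO, highest in replicate 3, with means of 98.0 ± 9.63 and 136 ± 17.6 CPM (SD, n = 3 each). TK1 changed by 0.47 ± 0.14 (adjusted p = 0.0488), was called in 5 of 15 alternative analyses with adjusted p from 0.00744 to 0.998, and stood at 0.10 once the GC and length trend was removed; its transcript has 60.3% GC.

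EZA replicate 3 did not shift the members in 1 direction. Relative to the mean of the other EZA libraries, it was higher by more than 0.5 on the log2 scale in 7 members (POLA2, GMNN, MCM2, FEN1, RFC4, LIG1 and POLD1) and lower by more than 0.5 in 9 (RFC5, ORC3, POLE2, ORC4, GINS3, DBF4, PRIM1, POLD3 and POLD2). The other 36 members stayed within 0.5. Over all tested genes, 18.7% were higher and 19.1% lower by that measure. EZA replicates 1 and 2 both lay below every DMSO library in 37 members, against 30.3% of tested genes, and replicate 3 did so in 35, against 42.7%.

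Levels of different genes are set side by side here as the deposited length-normalised values (FPKM). The length behind FPKM is not given for each gene and can differ from the transcript length used for the GC and length trend. The order of genes depends on that length. On that scale the members ranged in DMSO from 2.197 FPKM for POLA2 to 228 FPKM for PCNA, with a median of 14.3 FPKM, and the median in EZA was 10.9 FPKM. The order of the members hardly differed between groups (Spearman's rho 0.97 over 52 genes, a description of the same transcripts in both groups). The ring subunits, which sit in the protein complex in equal number, had unequal FPKM. In DMSO, MCM7 had 153 ± 12.1, MCM4 81.6 ± 0.78 and MCM3 65.1 ± 2.50 FPKM (SD, n = 3). MCM6 had 48.3 ± 1.70, MCM2 38.6 ± 4.26 and MCM5 24.1 ± 2.48 FPKM. Neighbours in this order were further apart than their SDs. In EZA, MCM4 had 54.6 ± 2.17 FPKM, MCM3 55.5 ± 9.77 and MCM6 49.0 ± 2.03. On the FPKM scale MCM4 then lay within the spread of MCM3.

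**Figure D5:**
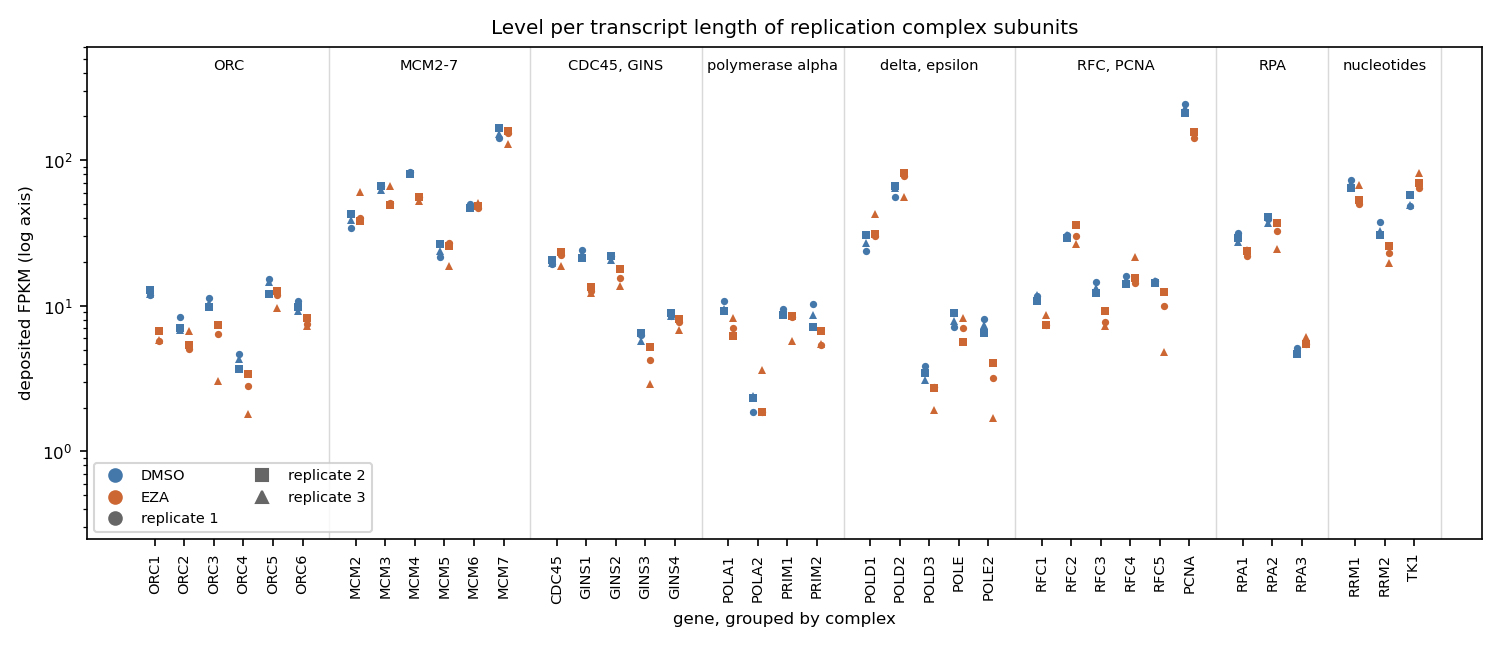
Deposited FPKM (y axis, log scale) of subunits grouped by complex (x axis) in each of the 6 libraries, with colour for the group and symbol for the replicate. PCNA (228 FPKM in DMSO) and MCM7 (153 FPKM) are the highest, and within the ring MCM4 is the subunit with separate groups.

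Of 84 further genes of the pathway, taken as lists by function, 20 fell (23.8%, against 7.82% of all tested genes). In the same lists 2 rose, against 9.89% of all tested genes, and the median of the 84 was -0.25. Other origin and fork genes fell in 8 of 26 cases (30.8%, against the same 7.82%) and rose in 1, against 9.89%. TOPBP1, a scaffold for origin firing and checkpoint signalling, had 143, 125 and 136 CPM in DMSO and 79.9, 75.3 and 69.2 CPM in EZA, a change of -0.84 ± 0.12 (adjusted p = 0.0053) that was called in all 15 alternatives. TOP2A, the topoisomerase of dividing cells, changed by -0.66 ± 0.14 (adjusted p = 0.0174), and ATAD5, which unloads PCNA, by -1.06 ± 0.25 (adjusted p = 0.0258). DONSON, a factor that helps assemble the helicase, changed by -0.69 ± 0.17 (adjusted p = 0.0275). POLD4, the smallest subunit of polymerase delta, was low but higher in EZA, with 2.19, 4.47 and 3.77 CPM in DMSO and 7.11, 8.78 and 13.2 CPM in EZA. Its groups did not overlap, at 1.48 ± 0.31 (adjusted p = 0.0177). Once the GC and length trend was removed, TOP2A (-0.33), ATAD5 (-0.70) and DONSON (-0.58) did not pass.

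Genes that turn over CDT1 and control origin use fell in 3 of 7 cases (42.9%, against 7.82% of all tested genes). They were SKP2 at -0.82 ± 0.14 (adjusted p = 0.0102), DTL at -0.76 ± 0.15 (adjusted p = 0.0144) and FBXO5 at -0.98 ± 0.22 (adjusted p = 0.0222). SKP2 and DTL are receptors of ubiquitin ligases that mark CDT1, and FBXO5 inhibits the anaphase-promoting complex. Chromatin assembly genes fell in 3 of 11 cases (27.3%, against 7.82% of all tested genes). They were MMS22L at -0.98 ± 0.14 (adjusted p = 0.00459), HAT1 at -0.51 ± 0.13 (adjusted p = 0.0294) and UHRF1 at -0.52 ± 0.15 (adjusted p = 0.0432). MMS22L acts in repair at stalled forks, HAT1 acetylates new histones, and UHRF1 brings the DNA methyltransferase to newly copied DNA. HAT1 (-0.22) and FBXO5 (-0.72) did not pass once the GC and length trend was removed.

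Nucleotide metabolism genes beyond the 3 members fell in 1 of 25 cases (4%, against 7.82% of all tested genes) and rose in 0, against 9.89%. Their median was -0.17. TYMS, which makes thymidylate, had 44.7, 42.4 and 47.3 CPM in DMSO and 39.6, 44.3 and 37.1 CPM in EZA. The TYMS groups overlapped, and its change was -0.15 (adjusted p = 0.443).

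Regulators of the G1/S step fell in 5 of 15 cases (33.3%, against 7.82% of all tested genes) and rose in 1, against 9.89%. E2F1, an activating E2F, had 62.3, 81.3 and 71.7 CPM in DMSO and 112, 115 and 130 CPM in EZA. All 3 EZA libraries were higher, at 0.73 ± 0.14 (adjusted p = 0.0129), and at 0.36 once the GC and length trend was removed. E2F8, a repressing E2F, had 14.5, 11.1 and 13.5 CPM in DMSO and 6.54, 4.86 and 3.11 CPM in EZA, a change of -1.42 ± 0.26 (adjusted p = 0.0111). RB1, the pocket protein that restrains E2F, fell by 0.70 on the log2 scale (SE 0.15, adjusted p = 0.0195), CCNE2, a cyclin of this step, by 0.84 (SE 0.22, adjusted p = 0.0352) and its kinase CDK2 by 0.46 (SE 0.14, adjusted p = 0.046). RB1 (-0.33) and CCNE2 (-0.47) did not pass once the GC and length trend was removed. The proliferation marker MKI67 moved with the members: it had 355, 400.35 and 380.2 CPM in DMSO and 235, 142 and 153 CPM in EZA, a change of -1.10 ± 0.19 (adjusted p = 0.0102). The part of a change in proliferation in the members' values was not tested.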

How the data were processed

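Poly(A) RNA from 6 RKO samples (3 DMSO, 3 EZA, grouped by their titles) was made into unstranded libraries that were sequenced in the same batch, per the labels. FastQC, HISAT2, featureCounts, DESeq2 and build GRCh38 appear in the submitters' processing notes; the annotation and all versions and options were not given in the sources used here. As deposited by the authors, the table holds whole-number counts by Ensembl identifier and FPKM, which are these counts over a fixed length for each gene and a fixed total for each library. Of 58735 identifiers, 58207 were found in GENCODE 44, which gave symbols, positions, GC content and transcript length. By that annotation 25 members share exon bases with another gene, 11 of them at 5% or more. How reads there were assigned is not given.

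Genes passing filterByExpr were normalised by TMM, and EZA was compared with DMSO by a two-sided robust quasi-likelihood test (glmQLFit, glmQLFTest; edgeR 4.0.16, R 4.3.3), with Benjamini-Hochberg adjustment over 13503 genes. FPKM served for levels only. Totals of 14070611 to 18840954 counts set the counting precision; the common biological coefficient of variation was 18.4%. Replicates are called biological, with no word on separate cultures, so the p-values reflect only how far these samples spread. The Wilson interval covers binomial error over the 46 matched genes and holds no spread between samples. Alternatives were DESeq2 1.42.0, limma-voom (limma 3.58.1), other scalings, no filter, a replicate block, each library left out, and a GC and length trend removed. For each library, log2 CPM minus the gene's mean over libraries was fitted by lowess (span 0.3). The fit was on GC content and then on log length. The members and lists were chosen with earlier results of these data known. Members that passed are named with all values, and other lists by up to 4 called genes with the smallest adjusted p and 1 in the other direction, with TYMS, E2F1 and CCNE2 in any case; MKI67 is a listed marker. Some listed genes are not reported here. The tests were checked on simulated data.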

Additional observations from a re-analysis of the deposited data

How the results depend on the processing

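Removing the GC and length trend lowered the members called lower from 16 to 9, their median log2 fold change from -0.37 to -0.26, the further pathway genes called lower from 20 to 11 and all genes called from 2392 to 1538. Removing it with the replicate block gave 4 members, a median of -0.28, 5 further genes, 602 genes in all and 4 of the 8 roles with a member called lower, against 7. Removing it without EZA replicate 3 gave 37 members, 44 further genes and 5329 genes in all, and 1 member past the study's threshold, against 2. Leaving out 1 library gave 2 to 33 members called lower, 0 to 3 called higher, 1 to 4 past the study's threshold, 2 to 8 roles, 2 to 41 further genes and 220 to 5289 genes in all. TK1 was the 1 member called higher; 0 were called higher with library sizes alone, with the replicate block, or with the trend removed in any of the 3 ways. The core word lay in 82.6% of the 46 matched member genes, against 47.8% for the full E2F words. Of tested genes that matched, 45.1% held the core and 6.84% a full word. The cause of these changes was not tested; fits that leave out a library have fewer samples.

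Replicate numbers did not pair the libraries (same-numbered deviations correlated at 0.03, -0.17 and 0.03, and DMSO replicate 1 correlated best with EZA replicate 2, at 0.17). The replicate block gave 17 members called lower, 14 of them among the 16, 14 further genes and 1970 genes in all.

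Directions reversed in TK1 and in members whose test with all 6 libraries and the trend kept did not pass. With the trend removed, CDT1 was at -0.17, POLD1 -0.13, POLD2 -0.13, RFC2 -0.095 and LIG1 -0.13; with the block as well, -0.19, -0.14, -0.15, -0.098 and -0.15. With the trend removed and EZA replicate 3 out, MCM2 was at -0.18, POLA2 -0.34, PRIM1 0.059, POLD1 -0.21, RFC2 -0.033, LIG1 -0.30 and TK1 -0.000232. In that fit MCM2, POLA2, POLD1 and LIG1 were called lower (edgeR adjusted p of 0.0193, 0.0483, 0.00724 and 0.00117), against 18.4% of all tested genes. The other reversals did not pass in their fits. With library sizes alone, MCM6 was at -0.038 and RFC2 at -0.025. Leaving out 1 library gave MCM5 values of -0.13 to 0.11, MCM6 -0.029 to 0.035, MCM7 -0.12 to 0.0058, POLA2 -0.25 to 0.32, RFC2 -0.082 to 0.12, RFC4 -0.029 to 0.29 and LIG1 -0.024 to 0.27. Of 1020 values for single genes under the alternatives, 796 kept direction and side of the threshold. Depth did not limit detection of the members, all of which were tested; 3 libraries a group limit the precision.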

Other observations

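Ratios of deposited FPKM between subunits that work together were computed per library and are given as values, with no test. CDC45 to GINS1 was 0.878 ± 0.0771 in DMSO and 1.69 ± 0.125 in EZA (SD, n = 3 each), and RFC2 to RFC3 was 2.26 ± 0.148 and 3.85 ± 0.125. MCM4 to MCM6 was 1.69 ± 0.0440 in DMSO and 1.12 ± 0.0877 in EZA, and ORC1 to ORC6 was 1.24 ± 0.119 and 0.788 ± 0.0265. RPA1 to RPA3 was 5.999 ± 0.469 in DMSO and 4.10 ± 0.230 in EZA. In each of these 5 pairs the libraries of the groups did not overlap. No share for pairs of other genes was computed to set beside this. POLE to POLE2 was 1.11 ± 0.252 in DMSO and 2.81 ± 1.81 in EZA, separate but with a wide spread in EZA. The ratios of PCNA to RFC1 (19.9 ± 0.772 and 19.6 ± 1.60), CDC7 to DBF4 (1.11 ± 0.130 and 1.30 ± 0.485) and GMNN to CDT1 (0.440 ± 0.104 and 0.240 ± 0.116) overlapped between groups. The pairs were chosen with the members' values known.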
